A study of Mus musculus with 21 samples.

Results

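Type I interferon-stimulated genes are the genes that cells switch on when interferon-alpha or interferon-beta binds its receptor. The set described here holds 37 mouse genes, chosen as a list of well-known members of that programme and matched by symbol among the 27179 genes of the count table. All 37 were found, and all 37 had enough counts to be tested, among 13275 genes that had. RNA was sequenced from C57BL/6 mice in 7 groups of 3 libraries. The groups were the cardiac macrophage populations R1, R2 and R3 of mice challenged with CAWS, a water-soluble extract of Candida albicans that produces a Kawasaki disease model, the same 3 populations of naive mice, and splenic monocytes of naive mice. By their surface markers, R1 cells lack Ccr2 and are low in MHC-II, R2 cells lack Ccr2 and are high in MHC-II, and R3 cells carry Ccr2 and are high in MHC-II. The monocytes were also sorted as carrying Ccr2. Each replicate is a pool of mice. The 3 heart populations that carry the same replicate number within a treatment were read as coming from the same pool, so one pool can move 3 libraries at once. The labels used here give neither the age of the mice nor the time between challenge and sorting.

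Type I interferons bind the receptor made of Ifnar1 and Ifnar2, which activates the kinases Jak1 and Tyk2. These phosphorylate Stat2, which acts with Irf9 in ISGF3, the complex that binds the interferon-stimulated response element (ISRE) in the promoters of the responding genes. Many of the products block viral RNA or its translation, and others, such as Irf7 and the RNA sensors, feed back on interferon production. Macrophages keep a low level of this programme without infection.

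The members lie partly in gene clusters, which is shown here because neighbours in a cluster are often similar in sequence. Ifit1, Ifit2, Ifit3 and Ifit3b lie on chromosome 19 (build GRCm38.p6), with Ifit2 starting at base 34550550 and Ifit1 ending at base 34650009. Oas1a, Oas2 and Oas3 lie on chromosome 5 between bases 120730333 and 120907544, and Oasl1 and Oasl2 on the same chromosome between 114896926 and 114937911. Ifit3 shares 51.2% of its 50-base words with Ifit3b, and Oas1a shares 57.6% with Oas1g, so reads between those genes may have been split or lost in the authors' counting and their counts are uncertain. Irf7 overlaps an exon of Phrf1 on the opposite strand and Irf9 an exon of Rnf31 on the same strand, and the sources used here do not state whether counting used the strand.

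The core letters of the ISRE were looked for in the RefSeq promoter windows (GRCm38.p6, 250 bases before to 50 after each start). Of the 37 members, 26 had a window. The ISRE core, taken as GAAA, any 2 bases and GAAA again, on either strand, stood in the windows of 13 of the 26 genes (50%), against 3.99% of the 27018 genes with a window. The windows of Isg15 (chr4:156200769-156201068, minus strand), Oas1a (chr5:120907476-120907775, minus strand), Bst2 (chr8:71537423-71537722, minus strand), Ifit1 (chr19:34640639-34640938, plus strand), Ifit3 (chr19:34583279-34583578, plus strand), Ifit3b (chr19:34607707-34608006, plus strand), Oas3 (chr5:120777610-120777909, minus strand), Rsad2 (chr12:26456403-26456702, minus strand) and Stat2 (chr10:128270248-128270547, plus strand) hold their match before the start. Trim30a (minus strand) holds a match before the start in window chr7:104465144-104465443 and after it in window chr7:104446076-104446375. Ddx58, Eif2ak2 and Ifih1 hold theirs after it. The matched stretches of the genes with a core are shown, except those of Trim30a, Ddx58, Eif2ak2 and Ifih1. They run 5′ to 3′ on the gene's strand, with the matching letters in capitals and 8 flanking bases on each side. A match describes letters and does not show binding.

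Isg15: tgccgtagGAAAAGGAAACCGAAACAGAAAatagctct
Oas1a: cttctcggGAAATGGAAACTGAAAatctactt
Bst2: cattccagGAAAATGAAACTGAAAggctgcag
Oas3: agggaggaGAAAACGAAAgtgaaggg
Ifit1 far: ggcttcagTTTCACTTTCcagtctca
Ifit1 near: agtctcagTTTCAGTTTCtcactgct
Ifit3 far: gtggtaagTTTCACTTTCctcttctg
Ifit3 near: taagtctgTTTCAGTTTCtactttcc
Ifit3b far: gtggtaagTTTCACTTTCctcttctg
Ifit3b near: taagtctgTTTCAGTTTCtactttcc
Rsad2: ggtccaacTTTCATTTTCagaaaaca
Stat2: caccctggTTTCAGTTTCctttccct

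Isg15, which encodes a ubiquitin-like protein that is conjugated to other proteins, carries an unbroken run of overlapping matches from position -78 to -57 relative to its start. Oas1a and Bst2 carry shorter overlapping runs, Oas1a from -20 to -5 and Bst2 from -130 to -115. Ifit1 carries a pair of separate matches, the farther one starting at -104 and the nearer one at -85. Ifit3 and Ifit3b carry the same pair of stretches, letter for letter over the bases shown. Irf7, Ifit2, Isg20, Cmpk2 and Oasl2 were among the 13 members whose window held no ISRE core.

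Total counts per library ran from 12800136 to 23006155. The members together took from 0.202% to 0.432% of the counts of a library. RNA of the sorting markers followed the gates: Ccr2 averaged 3667 ± 343 CPM (read counts rescaled to equal, TMM-adjusted depth) in CAWS R3 and 2390 ± 304 in naive R3 (SD, n = 3 each). It averaged 231 ± 31.5 CPM in CAWS R2 and 29.3 ± 9.25 CPM in naive R2, and 80.5 ± 40.5 CPM in CAWS R1 and 6.58 ± 2.04 CPM in naive R1 (SD, n = 3 each), so it was far below R3 in the Ccr2-negative gates but higher there in CAWS than in naive libraries, without overlap. The macrophage markers Adgre1 and Csf1r were present in every group, and the mean of Adgre1 among the heart groups lay between 2620 ± 210 CPM in CAWS R2 and 1705 ± 37.1 CPM in naive R3 (SD, n = 3 each). In bulk RNA of sorted cells, fewer cells of a type and less RNA per cell cannot be told apart.

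The first question was whether CAWS challenge raised the interferon programme in the heart macrophages. Of the 37 members, 0 were called higher and 0 lower in CAWS R1 against naive R1 (edgeR's quasi-likelihood test, adjusted p under 0.05), where 6.07% of all genes tested were called higher and 2.87% lower. In CAWS R2 against naive R2, 0 were called higher and 0 lower, where 6.79% of all genes were called higher and 3.5% lower. In CAWS R3 against naive R3, 0 were called higher and 1 lower, where 6.7% of all genes were called higher and 8.29% lower. The members' median log2 fold change was 0.02 in R2 and 0.05 in R3, and in R1 it was 1.85e-06. At an unadjusted p under 0.05 stood 1 member in R1, 1 in R2 and 2 in R3, while 22.9%, 24.1% and 29.1% of all genes did in R1, R2 and R3. These counts do not show that the members were equal between CAWS and naive cells: the 95% interval of the log2 fold change lay within 1 of 0 on both sides for 28 members in R1, 28 in R2 and 26 in R3, and was wider for the others.

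**Figure D1:**
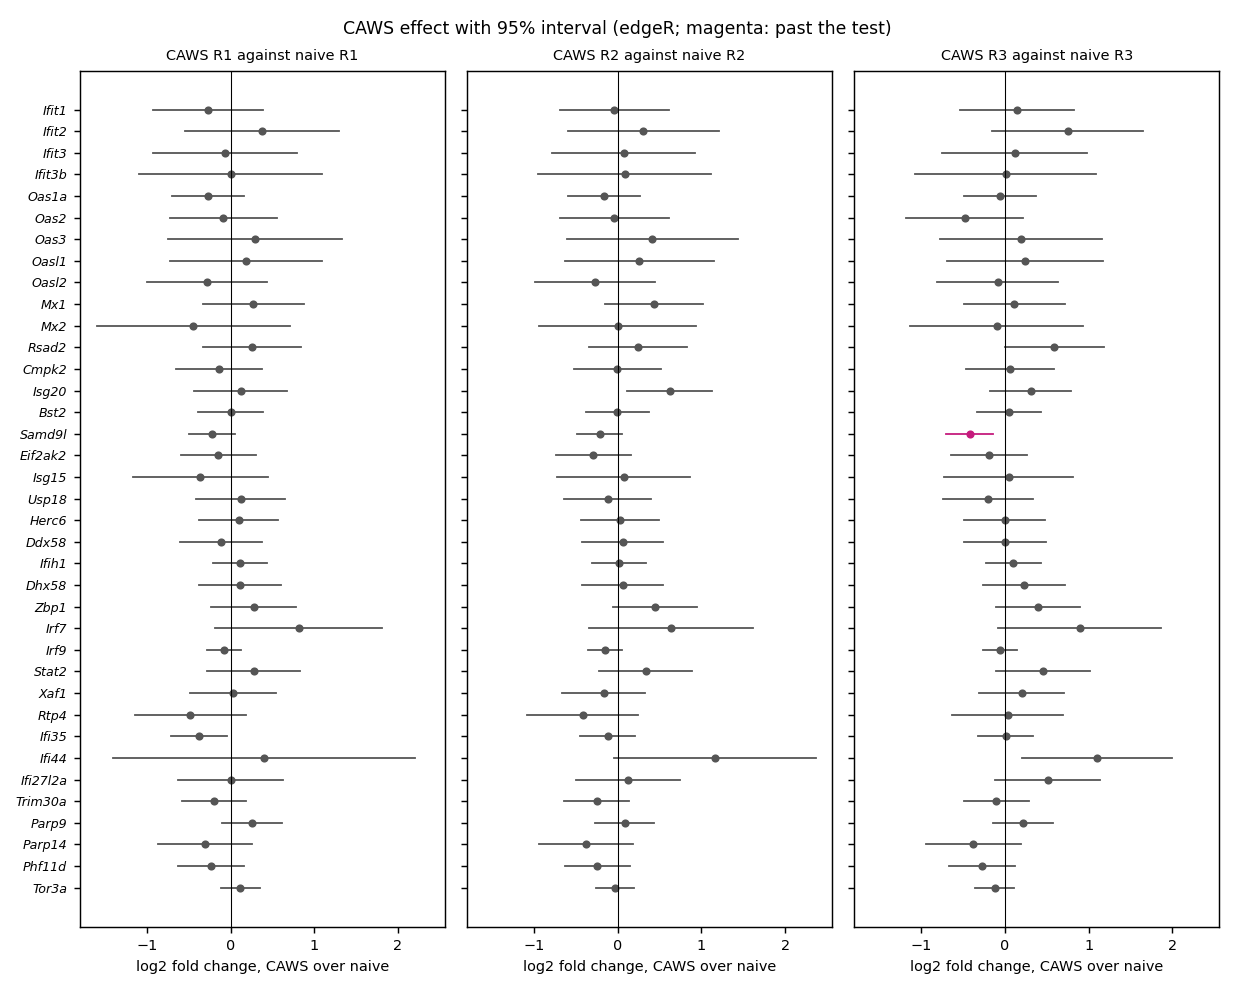
Log2 fold change of CAWS over naive cells for each of the 37 members (rows) in R1, R2 and R3 (panels), with points for the estimate and lines for the 95% interval of edgeR's fit. Nearly all intervals cross 0, Samd9l in R3 is the single member past the test at -0.42, and the intervals of Ifi44, Irf7, Mx2 and Ifit3b are among the widest.

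Samd9l, which encodes a restriction factor that acts on translation, was the 1 member past the test. It had 96.6, 99.6 and 116 CPM in CAWS R3, against 171, 137 and 110 CPM in naive R3. The groups overlap, since CAWS R3 replicate 3 lies above naive R3 replicate 3. The log2 fold change was -0.42 ± 0.13 (SE, adjusted p = 0.0346, edgeR). Without naive R3 replicate 1 it was -0.25 (adjusted p = 0.237), without CAWS R3 replicate 1 it was -0.33 (adjusted p = 0.187), and without CAWS R3 replicate 2 it was -0.39 (adjusted p = 0.136, edgeR). The direction was kept in each of these fits, and the call was not. Under 14 of the 33 alternative settings run, the number of members called lower in this comparison stayed at 1. Samd9l had 120, 114 and 120 CPM in CAWS R1, against 154, 131 and 126 CPM in naive R1, and 99.2, 100 and 115 CPM in CAWS R2, against 127, 118 and 121 CPM in naive R2. The groups do not overlap in either population, but the log2 fold changes of -0.22 ± 0.13 in R1 and -0.22 ± 0.13 in R2 did not pass the test (adjusted p = 0.334 and 0.335, edgeR).

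Without overlap between the libraries stood 0 members that were higher in CAWS R1 than in naive R1, where 16.1% of all genes did so, and 2 that were lower, Ifi35 and Samd9l, where 12.4% did. In R2 there were 2 higher, Ifi44 and Isg20 (20.3% of all genes), and 1 lower, Samd9l (16.2%). In R3 there was 1 higher, Ifi27l2a (16.3%), and 0 lower (18.5%). Ifi27l2a encodes a small membrane protein of the interferon-induced Ifi27 family. It had 280, 332 and 310 CPM in CAWS R3, against 245, 191 and 211 CPM in naive R3. Its log2 fold change of 0.51 ± 0.30 (SE) did not pass the test.

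Among the transcription factors, Irf7 had the widest range. It is the interferon regulatory factor that amplifies type I interferon production, and it is described here, as are the further members named under CAWS, because its values were seen to vary. Irf7 had 123, 174 and 208 CPM in CAWS R3, against 146, 68.4 and 56.9 CPM in naive R3. In R2 it had 67.2, 90.6 and 128 CPM in CAWS cells, against 114, 36.2 and 32.9 CPM in naive cells. In R1 it had 73.2, 89.9 and 101 CPM in CAWS cells, against 76, 33.3 and 39.9 CPM in naive cells. In each population naive replicate 1 stands within the CAWS range, while naive replicates 2 and 3 lie below every CAWS library. The log2 fold changes of 0.89 ± 0.46 in R3, 0.64 ± 0.46 in R2 and 0.81 ± 0.47 in R1 (SE) did not pass the test. Stat2 had 78.6, 83.2 and 117 CPM in CAWS R3, against 86.3, 59.6 and 58.1 CPM in naive R3, so naive replicate 1 lay above 2 of the 3 CAWS libraries. Irf9, the DNA-binding partner of the complex, had log2 fold changes of -0.08 in R1, -0.15 in R2 and -0.06 in R3, and none passed the test.

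Among the RNA-binding effectors, Ifit2 had 64.1, 75.6 and 97.4 CPM in CAWS R3, against 81.5, 30.7 and 28.6 CPM in naive R3. Its log2 fold change was 0.75 ± 0.43 (SE) and did not pass the test. Ifit3 had 52.4, 60.2 and 64.1 CPM in CAWS R3, against 86.9, 45 and 30.8 CPM in naive R3. Naive replicate 1 stood above all 3 CAWS libraries for Ifit3, and naive replicates 2 and 3 stood below them. Ifit1, which binds RNA lacking the host's cap methylation, had 17.9, 21.7 and 21.2 CPM in CAWS R3, against 27.3, 17.9 and 9.6 CPM in naive R3, with naive replicate 1 the highest library and naive replicate 3 the lowest.

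Among the restriction factors, Rsad2, which encodes viperin, an enzyme that makes a chain-terminating nucleotide, had 38.4, 54.1 and 60.1 CPM in CAWS R3, against 45.8, 31.5 and 24.1 CPM in naive R3. Its log2 fold change was 0.59 ± 0.28 (SE) and did not pass the test. Isg20, an exonuclease that degrades RNA, had 8.67, 6.67 and 8.86 CPM in CAWS R2, against 6.19, 4.21 and 5.16 CPM in naive R2, without overlap, and its log2 fold change of 0.62 ± 0.24 (SE) did not pass the test. Mx2, a dynamin-like GTPase, had a low level, with 2.19, 2.17 and 3.07 CPM in CAWS R3, against 3.76, 2.58 and 1.59 CPM in naive R3, and the groups overlap. In the ISG15 system, Isg15 had 19.7, 27.2 and 32 CPM in CAWS R3, against 39.4, 20 and 17 CPM in naive R3. Usp18, which removes Isg15 from proteins and restrains the receptor, had 22.8, 21.6 and 25.7 CPM in CAWS R3, against 37.4, 23.8 and 19.4 CPM in naive R3. The groups overlap for both, with naive replicate 1 the highest library.

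The sensors of viral RNA Ddx58 (RIG-I), Ifih1 (MDA5) and Dhx58 (LGP2) and the nucleic acid sensor Zbp1 had log2 fold changes between -0.11 and 0.28 in R1, between 0.02 and 0.44 in R2 and between 0.0021 and 0.40 in R3, and none passed the test. The 2-5A synthetases make the messenger that activates RNase L, and the group of 5 with its relatives Oasl1 and Oasl2 had log2 fold changes between -0.28 and 0.29 in R1, between -0.27 and 0.41 in R2 and between -0.48 and 0.24 in R3. Ifi44, a cytoplasmic protein induced by interferon, had the largest estimate in R2 and R3. It had 3.75, 13 and 12.6 CPM in CAWS R3, against 5.73, 5.78 and 2.05 CPM in naive R3, with CAWS replicate 1 inside the naive range. Its log2 fold changes of 1.10 ± 0.43 in R3 and 1.16 ± 0.58 in R2 (SE) did not pass the test.

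The remaining 10 members have mixed or less known roles, and their log2 fold changes lay between -0.48 and 0.39 in R1, between -0.42 and 1.16 in R2 and between -0.38 and 1.10 in R3. Ifi35, a leucine zipper protein, had 24.8, 28.1 and 31.5 CPM in CAWS R1, against 39.7, 34.7 and 35.1 CPM in naive R1. The groups do not overlap, but the log2 fold change of -0.38 ± 0.16 (SE) did not pass the test (adjusted p = 0.159, edgeR). Rtp4 had 44.4, 50.4 and 64.4 CPM in CAWS R1, against 103, 68.6 and 50 CPM in naive R1. Trim30a, a ubiquitin ligase of the tripartite motif family, had 141, 168 and 186 CPM in CAWS R3, against 219, 162 and 151 CPM in naive R3. Parp14, an ADP-ribosyltransferase, had 162, 146 and 238 CPM in CAWS R3, against 284, 197 and 230 CPM in naive R3. For Rtp4, Trim30a and Parp14 the groups overlap, and naive replicate 1 was the highest of the libraries just given.

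Whether the response to CAWS differed between populations was tested as the difference between their CAWS effects, which share the groups they are built from. For R2 minus R1, 0 members were called higher and 0 lower, where 0.0377% and 0.0151% of all genes were. For R3 minus R1, 0 were called higher and 0 lower, where 0.0979% and 2.16% were. For R3 minus R2, 0 were called higher and 0 lower, where 0.0979% and 2.23% were. At an unadjusted p under 0.05, 0 members stood in any of these 3 differences, while 5.29%, 13.2% and 11.4% of all genes did, in the order given. When each pool was given its own term (the pool block), 1 member was higher in R3 minus R1 (1.6% of all genes), namely Rtp4, and 2 in R3 minus R2 (1.58%), namely Ifit2 and Rtp4. In that fit the difference for Rtp4, a chaperone-like protein, was 0.56 ± 0.14 against R1 (adjusted p = 0.0162) and 0.51 ± 0.14 against R2 (adjusted p = 0.0334), and that for Ifit2 against R2 was 0.53 ± 0.14 (SE, adjusted p = 0.0269, edgeR).

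The members also differed between pools of naive mice. Naive replicate 1 was the highest of the 3 naive libraries in R1, in R2 and in R3 for 33 of the 37 members, while 5.62% of all genes tested showed that order. The 4 exceptions were Ifi44, Isg20, Tor3a and Irf9. Averaged over the 3 populations, naive replicate 1 exceeded the mean of naive replicates 2 and 3 by a median of 0.67 on the log2 scale (0.13 to 2.08 over the members), against 0.0040 over all genes. The excess was above 0.5 for 26 of the 37 members and for 7.74% of all genes. Other genes differed more: 0 members were among the 50 genes with the largest excess, 1 among the top 100 and 12 among the top 500. These pool values are descriptions, made after the values were seen, and no test was run on them.

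**Figure D2:**
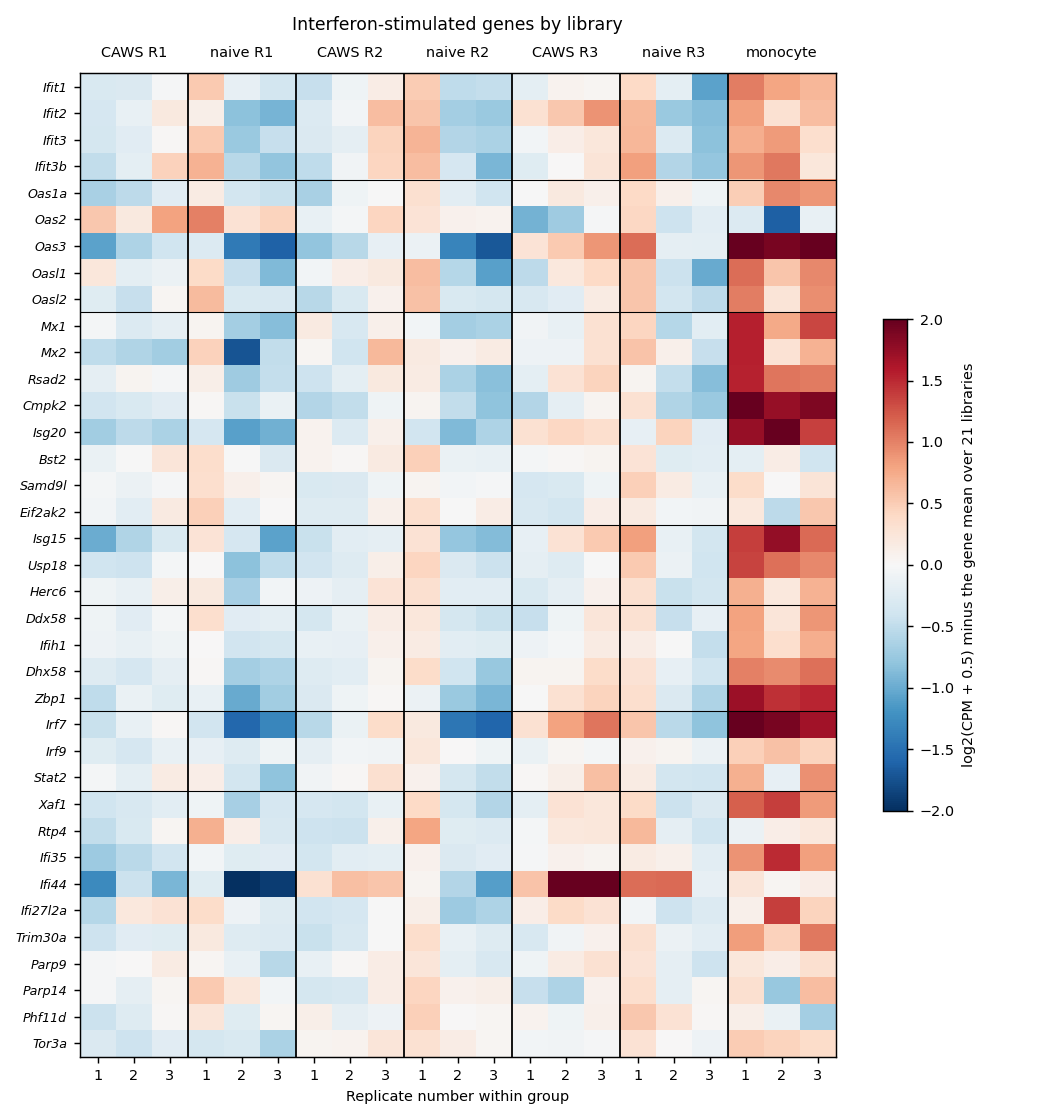
Level of each member (rows, ordered by role) in each of the 21 libraries (columns, by group and replicate number), as log2(CPM + 0.5) minus the gene's mean over the 21 libraries, with colours held at -2 and 2. The naive replicate 1 columns of R1, R2 and R3 are redder than those of naive replicates 2 and 3 for most rows. The monocyte columns are among the reddest for Oas3, Irf7, Cmpk2, Isg20 and Zbp1.

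The size of the excess differed among the members. Oas3, a 2-5A synthetase, had 101 CPM in naive R3 replicate 1, against 41 and 40.3 CPM in naive R3 replicates 2 and 3, and 38.3 CPM in naive R1 replicate 1, against 17.1 and 14.8 CPM in the other naive R1 libraries. Its mean excess was 1.33 on the log2 scale. Ifit3b had an excess of 1.42, Irf7 of 1.34, Oasl1 of 1.31, Ifit2 of 1.25, Ifit3 of 1.22 and Isg15 of 1.08. The excess was small for Irf9 (0.13), Tor3a (0.22), Ifi35 (0.25) and Samd9l (0.28). Ifi44 had the largest mean excess at 2.08, but it rests on 1.93, 0 and 0.267 CPM in naive R1.

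The summed level of the 37 members gave the same order of libraries. It was 3022 CPM in naive R1 replicate 1, against 2136 and 2016 CPM in naive R1 replicates 2 and 3. It was 3175 CPM in naive R2 replicate 1, against 2105 and 2033 CPM, and 3252 CPM in naive R3 replicate 1, against 2232 and 2084 CPM. Within the CAWS groups replicate 3 had the highest sum, with 2584 CPM in R1, 2769 CPM in R2 and 3047 CPM in R3, against 2101 to 2671 CPM in the other 6 CAWS libraries. CAWS replicate 3 was the highest in all 3 populations for 22 of the 37 members, against 8.5% of all genes, with a median excess of 0.30. CAWS replicate 1 was the lowest in all 3 for 16 members (9.07% of all genes), and naive replicate 3 for 12 (5.76%).

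**Figure D3:**
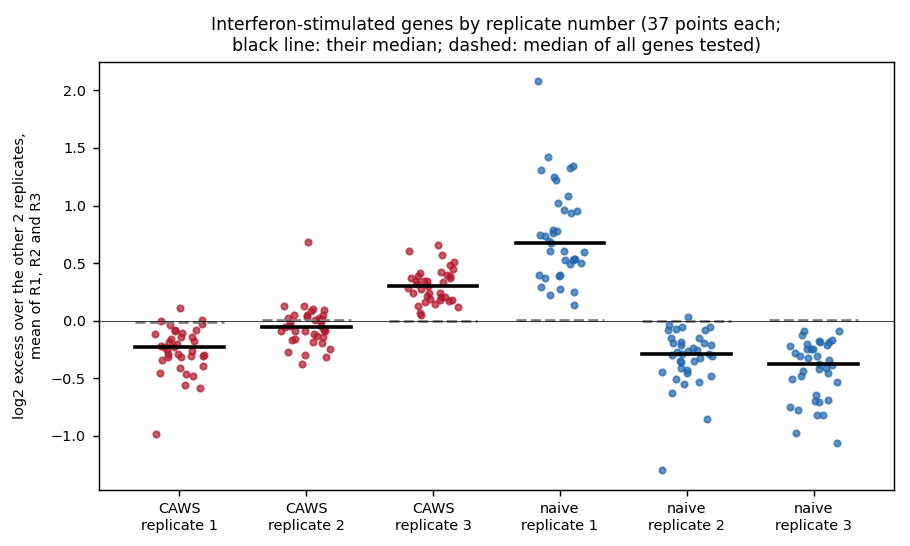
Log2 excess of 1 replicate number over the other 2 of its treatment, averaged over R1, R2 and R3, for the 37 members (points) in 3 CAWS and 3 naive pools. The members' median (black line) is 0.67 in naive replicate 1 and 0.30 in CAWS replicate 3, while the median of all genes (dashed) is near 0 in every pool.

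The spread within groups mirrored this. The median SD of the members' log2 level among the 3 libraries was 0.43 in naive R1, against 0.20 over all genes. It was 0.38 in naive R2, against 0.15, and 0.44 in naive R3, against 0.20. In the CAWS groups the members' median SD was 0.18 in R1, 0.23 in R2 and 0.23 in R3, against 0.18, 0.17 and 0.19 over all genes. Of 61 further interferon-stimulated genes tested outside the 37, 35 were highest in naive replicate 1 in all 3 populations, against 5.62% of all genes. The others of the 61 did not show that order. The median excess of the 61 was 0.37 on the log2 scale, against 0.67 for the members.

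**Figure D4:**
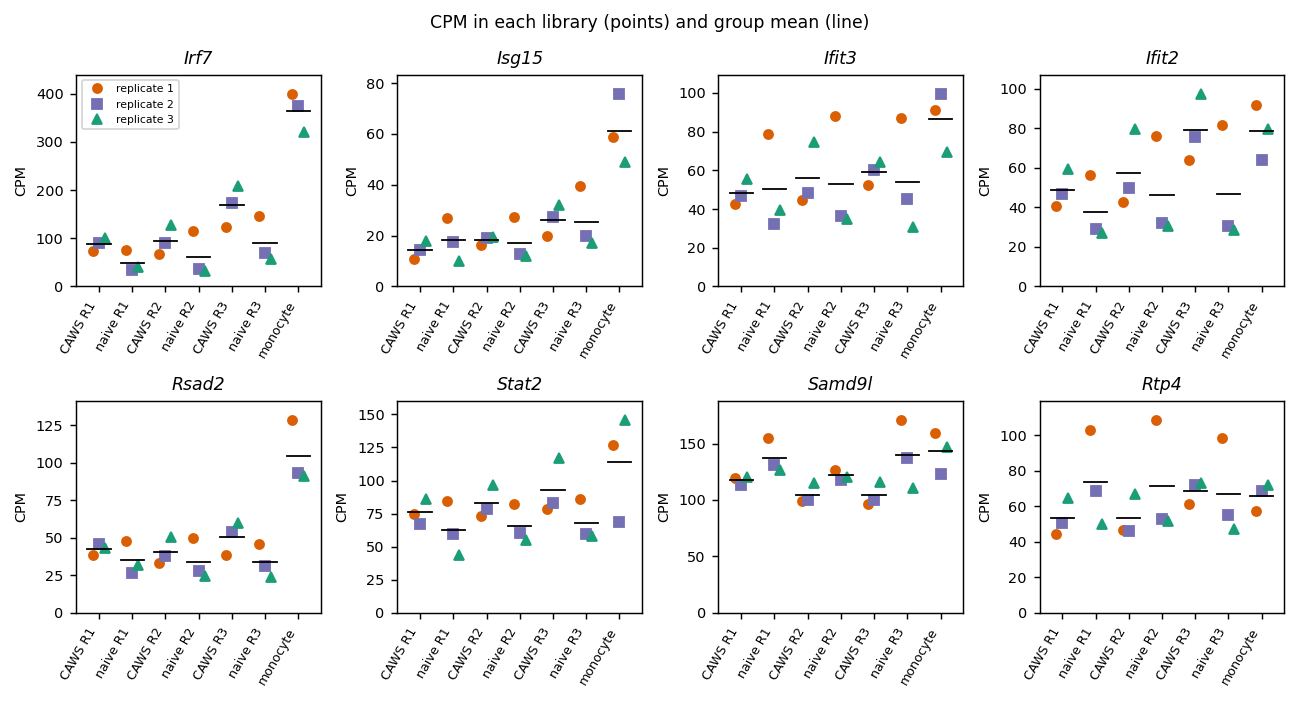
CPM of 8 members in each library (points, shape and colour by replicate number) with group means (lines), with each CAWS group left of its naive group. Naive replicate 1 stands apart above naive replicates 2 and 3 for Irf7, Ifit3, Ifit2 and Rtp4 in each population, while Samd9l varies little.

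Other measures differed between these libraries too, and their part in the result was not tested. The summed level of 8 markers of nonclassical monocytes was 469 CPM in naive R1 replicate 1, against 316 and 299 CPM in the other naive R1 libraries. It was 282 CPM in naive R2 replicate 1, against 258 and 248 CPM in the others, and 623 CPM in naive R3 replicate 1, against 569 and 458 CPM. The 10 markers of conventional dendritic cells summed to 14.15 CPM in naive R1 replicate 1, against 13.35 and 11.55 CPM in the others. In naive R2 they summed to 40 CPM, against 35.6 and 34.4 CPM, and in naive R3 to 562 CPM, against 387 and 290 CPM. The 10 cardiomyocyte markers summed to 83.4 CPM in naive R1 replicate 1, against 60.8 and 58.4 CPM. Their sum was 183 CPM in naive R2, against 137 and 151 CPM, and 177 CPM in naive R3, against 146 and 154 CPM. Replicate 1 had the lowest sum of 10 resident cardiac macrophage markers in naive R1 and naive R3. The 10 markers of plasmacytoid dendritic cells summed to 277 CPM in naive R1 replicate 1, against 295 and 272 CPM in replicates 2 and 3. In naive R2 they summed to 432 CPM in replicate 1, against 417 and 424 CPM, and in naive R3 to 315 CPM, against 306 and 314 CPM. From 1 to 7 of the 10 genes stood at 0 in a naive library. Naive R1 replicate 2 had 7 genes at 0 and still the highest sum of naive R1. Few genes carry this sum, so it does not measure how many such cells were present. The rank correlation across genes between a library's deviation from its group mean and gene length was 0.12, -0.05 and 0.18 in naive replicate 1 of R1, R2 and R3, and 0.01, 0.31 and 0.47 in CAWS replicate 3 of the 3 populations. Genes are not independent replicates, so no p is given. The 8 fibroblast markers summed to 215 CPM in naive R3 replicate 2, against 14.5 and 21.4 CPM in the other naive R3 libraries.

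Leaving out the libraries of naive replicate 1, a choice made after seeing the data, changed the CAWS counts. These libraries were picked because the members were high in them. Leaving them out lowers most members' naive means by construction, so the values below are no test of CAWS. Without those libraries 1 member was called higher in CAWS R1 (3.57% of all genes), 5 in CAWS R2 (4.1%) and 5 in CAWS R3 (4.3%). None was called lower, where 2.07% of all genes were in R1, 1.43% in R2 and 4.85% in R3. The members' median log2 fold change was then 0.19 in R1, 0.26 in R2 and 0.46 in R3, against 0.02, 0.01 and -0.01 over all genes. Irf7, whose excess in naive replicate 1 was 1.34, was called in all 3 populations, which share their pools. Its log2 fold changes were 1.25 ± 0.25 in R1, 1.46 ± 0.25 in R2 and 1.46 ± 0.24 in R3 (SE, edgeR). Ifit2 was called in R2 at 0.86 ± 0.23 and in R3 at 1.45 ± 0.24, and Zbp1 in R2 at 0.72 ± 0.17 and in R3 at 0.75 ± 0.16. Oas3 and Oasl1 were added in R2, and Rsad2 and Dhx58 in R3. This leaves naive groups of 2 libraries. Leaving out the libraries of any other pool in turn left 0 or 1 member called higher in each CAWS comparison, and without CAWS replicate 3 the medians were -0.14 in R1, -0.14 in R2 and 0.04 in R3.

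The genes upstream of the members were examined next. Of 20 type I and III interferon genes, 17 had no count in any of the 21 libraries, and the other 3 had 23 counts in all of 359248651. Ifnb1, interferon-beta, had 5 counts over 3 libraries. A count of 0 allows up to 3 counts in a library, or 0.132 to 0.234 CPM depending on its depth, so RNA of those 17 genes was not detected in the deposited counts. Sequence shared among the Ifna genes was not measured here, so reads lost between them in the counting cannot be told from absence. The receptor genes were well detected. Ifnar1 averaged 269 ± 15.1 CPM in CAWS R1 and 268 ± 5.34 CPM in naive R1, and 290 ± 9.43 CPM in CAWS R3 and 272 ± 14.6 CPM in naive R3 (SD, n = 3 each). In CAWS R2 it had 282.5, 299 and 308 CPM, against 309, 334 and 335 CPM in naive R2, lower without overlap (16.2% of all genes). Ifnar2 was higher with CAWS without overlap in R1 (16.1%) and R3 (16.3%), and its groups overlapped in R2. In CAWS R3 Ifnar2 had 244.5, 281 and 250 CPM, against 207, 237 and 217 CPM in naive R3. None of these differences passed the test. Irf3, the factor that starts interferon production, averaged 37.3 ± 4.15 CPM in CAWS R3 and 34.7 ± 1.34 CPM in naive R3 (SD, n = 3 each).

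The counts of the upstream gene lists stand beside the shares of all genes given above, 6.07% higher and 2.87% lower in R1, 6.79% and 3.5% in R2, and 6.7% and 8.29% in R3. Of 10 receptor and kinase genes tested, 0 passed in R1, 1 was higher in R2 (Jak2, by 0.41 ± 0.11, SE, adjusted p = 0.0218, edgeR) and 0 passed in R3. Of 18 genes of nucleic acid sensing and its adaptors, 3 were higher and 0 lower in R1, 1 was higher and 1 lower in R2, and 1 was higher and 0 lower in R3. A single gene of 18 is near the share of all genes. Ikbke, the kinase IKK-epsilon that activates Irf3 and Irf7, was among them in each population. It had 13, 11.4 and 10.1 CPM in CAWS R1, against 2.08, 1.55 and 3.34 CPM in naive R1. It had 11.6, 11 and 11.3 CPM in CAWS R2, against 0.497, 0.91 and 1.01 CPM in naive R2, and 24.3, 19.8 and 18.4 CPM in CAWS R3, against 2.14, 2.8 and 4.1 CPM in naive R3. Every CAWS library lies above every naive one, and naive replicate 1 is not the highest naive library for Ikbke in any population. The log2 fold changes were 2.33 ± 0.34 in R1, 3.81 ± 0.40 in R2 and 2.80 ± 0.32 in R3 (SE, adjusted p = 0.000164, 1.53e-06 and 2.56e-06, edgeR). Ticam1, the adaptor of Toll-like receptor 3, rose by 0.73 and Irf8 by 0.48 in R1, and Tlr7 fell by 0.32 in R2.

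Of 11 negative regulators tested, 1 was higher in R1, 4 in R2 and 3 in R3, and 0 were lower, where 6.07%, 6.79% and 6.7% of all genes were called higher in R1, R2 and R3. Socs1, which blocks the Jak kinases, had 5.78, 6.59 and 7.94 CPM in CAWS R3, against 3.42, 3.72 and 2.65 CPM in naive R3, without overlap, and rose by 1.05 ± 0.34 (SE, adjusted p = 0.0425, edgeR). Socs3, which also blocks Jak kinases, rose by 0.57, Nlrx1 by 0.56 and Samhd1 by 0.43 in R2. Ptpn6, the phosphatase SHP-1, rose by 0.34 in R1, 0.25 in R2 and 0.27 in R3.

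Of 61 further interferon-stimulated genes tested, 3 were higher and 2 lower in CAWS R1, where 6.07% of all genes were higher and 2.87% lower, so these counts are near the background. In CAWS R2, 7 were higher and 1 lower, where 6.79% and 3.5% of all genes were, and in CAWS R3, 9 were higher and 0 lower, where 6.7% and 8.29% were. Their median log2 fold change was 0.04 in each population. Those that rose include genes also induced by interferon-gamma or NF-kB. Cxcl10, a chemokine, had 39.1, 39 and 38.6 CPM in CAWS R3, against 10.5, 16.6 and 7.74 CPM in naive R3, and 24.1, 32.1 and 37.1 CPM in CAWS R2, against 9.44, 9.55 and 9.21 CPM in naive R2. It rose by 1.73 ± 0.30 in R3 and by 1.73 ± 0.30 in R2 (SE, adjusted p = 0.000501 and 0.000656, edgeR). Cd274, which encodes PD-L1, had 15.5, 16 and 19.5 CPM in CAWS R3, against 6.89, 4.46 and 7.41 CPM in naive R3, and rose by 1.24 in R1, 1.43 in R2 and 1.45 in R3. Sp140, a chromatin reader, rose by 0.90, 1.04 and 1.16 in R1, R2 and R3, and Psmb9, an immunoproteasome subunit, by 0.62 in each. Ifi205 rose by 2.73 in R2 and 1.47 in R3, Ly6e by 0.62 in R2 and 0.83 in R3, and Slfn4 by 2.48 in R3. Tnfsf10, which encodes TRAIL, fell by 0.83 in R1. The summed level of 10 classical monocyte markers moved with CAWS as well, with 4351 to 4844 CPM in CAWS R3 and 2962 to 3582 CPM in naive R3, and 228 to 487 CPM in CAWS R1 and 76.2 to 141 CPM in naive R1. The proportional shift was larger in R2, with 435 to 543 CPM in CAWS R2 and 36 to 62.2 CPM in naive R2. That of 10 conventional dendritic cell markers was 148 to 368 CPM in CAWS R2 and 34.4 to 40 CPM in naive R2, 30.7 to 62.3 CPM in CAWS R1 and 11.6 to 14.2 CPM in naive R1, and overlapped in R3, with 244 to 424 CPM in CAWS R3 and 290 to 562 CPM in naive R3. The part of these marker levels in the results was not tested.

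The naive heart populations were compared with each other. In naive R2 against naive R1, 1 member was higher (3.88% of all genes) and 0 lower (3.25%). In naive R3 against naive R1, 3 were higher (12.5%) and 0 lower (10.7%). In naive R3 against naive R2, 0 were higher (6.63%) and 0 lower (5.77%). At an unadjusted p under 0.05 stood 3 members, while 25.4% of all genes did. DESeq2 called 1 member higher there, and the share of all genes in that fit is not given here. Tor3a, an interferon-responsive ATPase of the endoplasmic reticulum, had 163, 146 and 135 CPM in naive R2 and 160, 132 and 123 CPM in naive R3, against 103, 107 and 84.8 CPM in naive R1, so R1 lies below both without overlap. Its log2 fold changes were 0.59 ± 0.11 for R2 over R1 and 0.50 ± 0.11 for R3 over R1 (SE, adjusted p = 0.00131 and 0.00208, edgeR). Isg20 had 7.3, 11.3 and 6.95 CPM in naive R3, against 6.38, 3.6 and 3.94 CPM in naive R1, without overlap, a log2 fold change of 0.85 ± 0.25 (SE, adjusted p = 0.0166, edgeR). Ifi44 had 5.73, 5.78 and 2.05 CPM in naive R3, against 1.93, 0 and 0.267 CPM in naive R1, a log2 fold change of 2.46 ± 0.66 (SE, adjusted p = 0.00883, edgeR) on few counts.

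With the pool block, more members passed between the naive populations. In naive R3 against naive R1, 10 were higher (18.3% of all genes) and 1 lower (15.5%). In naive R3 against naive R2, 6 were higher (11.8%) and 0 lower (12.2%), and in naive R2 against naive R1, 2 were higher (8.37%) and 1 lower (6.74%). Oas3 had 101, 41 and 40.3 CPM in naive R3, against 38.3, 17.1 and 14.8 CPM in naive R1 and 42.6, 18.2 and 13.9 CPM in naive R2. Within each pool R3 was the highest for Oas3, and the blocked log2 fold changes were 1.38 ± 0.10 over R1 and 1.29 ± 0.10 over R2 (SE, adjusted p = 1.38e-10 and 8.14e-10, edgeR). Irf7 was higher in R3 by 0.85 ± 0.13 over R1 and 0.64 ± 0.12 over R2 in the same fit, Isg15 by 0.48 and 0.54, and Zbp1 by 0.45 and 0.41. Oas2 went the other way, with -0.65 ± 0.13 for R3 over R1 and -0.45 ± 0.12 for R2 over R1 (SE, adjusted p = 0.000247 and 0.0118, edgeR).

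The last comparison set each naive heart population against splenic monocytes, and the 3 comparisons share the monocyte libraries. In naive R1 against monocytes, 26 members were lower and 1 higher, where 30.8% and 32.5% of all genes were. In naive R2, 23 were lower and 0 higher, where 30.5% and 33.1% were. DESeq2 called 1 higher there, and the share of all genes in that fit is not given here. In naive R3, 24 were lower and 1 higher, where 27.1% and 31.9% were. The members' median log2 fold change was -0.87 in R1, -0.83 in R2 and -0.76 in R3, against 0.05, 0.08 and 0.06 over all genes. The groups differ in tissue as well as in cell type, and the effects of these cannot be told apart.

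**Figure D5:**
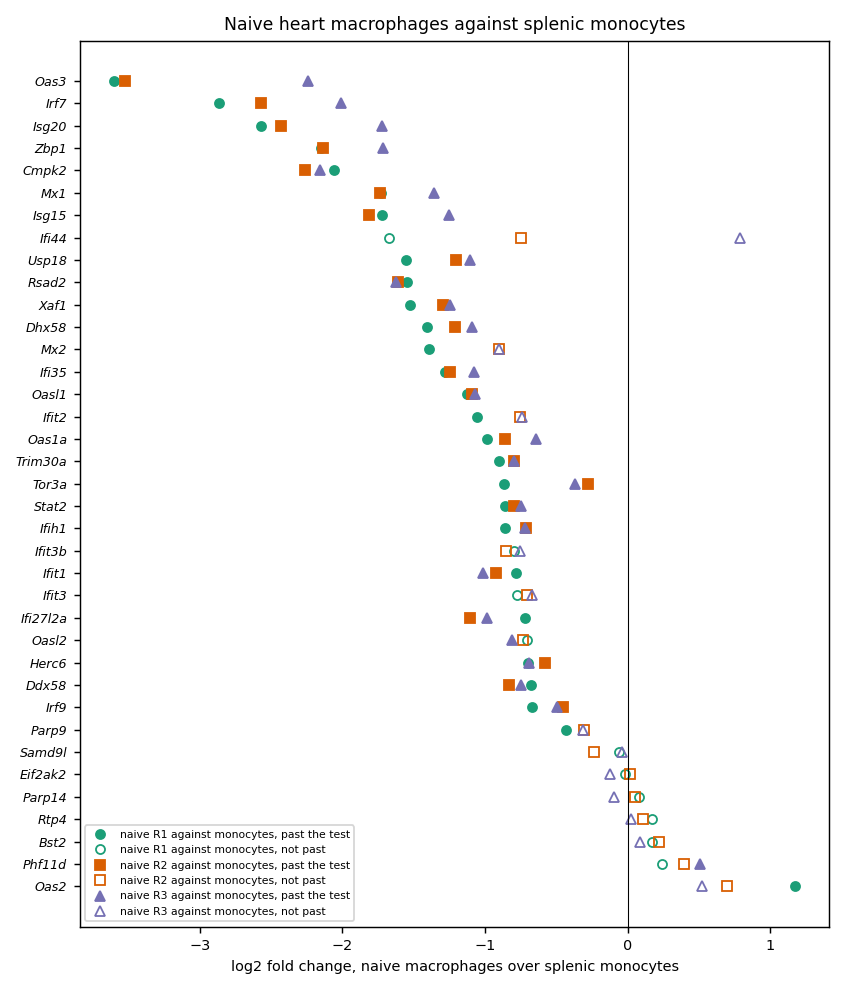
Log2 fold change of naive R1, R2 and R3 over splenic monocytes for the 37 members (rows, ordered by the R1 value), with filled symbols for those past the test and open symbols for the others. Most symbols lie left of 0, Oas3 farthest in each population, while Samd9l, Eif2ak2, Parp14, Rtp4 and Bst2 lie near 0 and Oas2 lies right of it.

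Oas3 showed the widest gap in each population, followed by Irf7 in R1 and R2 and by Cmpk2 in R3. Oas3 had 38.3, 17.1 and 14.8 CPM in naive R1, against 309, 175 and 379 CPM in monocytes, a log2 fold change of -3.60 ± 0.49 (SE, adjusted p = 8.85e-06, edgeR). Irf7 had 76, 33.3 and 39.9 CPM in naive R1, against 400, 373 and 321 CPM in monocytes, a log2 fold change of -2.86 ± 0.49 (SE, adjusted p = 8.35e-05, edgeR). Neither gene's groups overlap. In naive R3 the log2 fold changes were -2.24 for Oas3, -2.16 for Cmpk2 and -2.01 for Irf7.

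Isg20 had 6.38, 3.6 and 3.94 CPM in naive R1, against 28.6, 34.3 and 21.9 CPM in monocytes, a log2 fold change of -2.57. Zbp1, which triggers cell death on sensing Z-form nucleic acid, had 48.8, 26.6 and 33 CPM in naive R1, against 179, 150 and 156 CPM in monocytes, a log2 fold change of -2.15. Cmpk2, a mitochondrial nucleotide kinase beside Rsad2 on chromosome 12, had 38.7, 27.8 and 34.7 CPM in naive R1, against 153, 129 and 140 CPM in monocytes, a log2 fold change of -2.06. None of these groups overlap, and each of the 3 genes was lower in naive R2 and naive R3 as well. Mx1, a dynamin-like GTPase against influenza viruses, had a log2 fold change of -1.73 in R1 and -1.74 in R2, and it had 11, 6.46 and 5.68 CPM in naive R1, against 32.2, 18.4 and 27.7 CPM in monocytes. C57BL/6 mice carry a defective Mx1 allele, so its RNA does not stand for a working protein. Isg15 had 27.2, 12.8 and 11.8 CPM in naive R2, against 58.7, 75.8 and 49 CPM in monocytes, a log2 fold change of -1.81. Rsad2 had 45.8, 31.5 and 24.1 CPM in naive R3, against 129, 93.4 and 91.4 CPM in monocytes, a log2 fold change of -1.62.

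By role, all 4 sensors, all 3 transcription factors and all 3 members of the ISG15 system were called lower than in monocytes in each population. Of the 4 RNA-binding effectors, 2 passed in R1 and 1 in R2 and in R3. The log2 fold changes of all 4 were nonetheless below 0. They lay between -1.05 and -0.78 in R1, between -0.92 and -0.70 in R2 and between -1.02 and -0.67 in R3. Oas2 ran the other way. It had 55.4, 33.8 and 37.5 CPM in naive R1, against 22.6, 8.46 and 24.7 CPM in monocytes, without overlap, a log2 fold change of 1.18 ± 0.32 (SE, adjusted p = 0.00377, edgeR). Phf11d had 41.9, 35.2 and 29.3 CPM in naive R3, against 31.2, 26.1 and 17.8 CPM in monocytes, with overlap, a log2 fold change of 0.51 ± 0.19 (SE, adjusted p = 0.0255, edgeR). That call was lost without naive R3 replicate 1 and without monocyte replicate 3. Bst2 (tetherin), Rtp4, Parp14 and Eif2ak2, the RNA-dependent kinase PKR, passed in none of the 3 comparisons, with log2 fold changes between -0.12 and 0.22. Without the libraries of naive replicate 1, 30 members were lower than in monocytes in R1 (28.5% of all genes), 28 in R2 (28.2%) and 29 in R3 (24.3%). Those libraries were left out because the members were high in them, which lowers the naive means by construction. Monocyte libraries differed with gene length, with rank correlations of 0.39, -0.59 and 0.51 across genes, and Oas2 with 8.46 CPM, Parp14 with 132 CPM and Eif2ak2 with 39.9 CPM were lowest in monocyte replicate 2, and the part of this in the results was not tested.

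Levels can be set between genes only per length. As CPM per kilobase, Ifi27l2a and Bst2 were the highest members in every group named here: Ifi27l2a averaged 664 in CAWS R3, 465 in naive R3 and 922 in monocytes, and Bst2 231 in CAWS R3, 223 in naive R3 and 210 in monocytes. Irf7 followed in CAWS R3 with 90.4 and in monocytes with 196, and it came after Irf9 in naive R3, with 48.7 against 51.5. Mx1, with 4.09 in CAWS R3 and 3.79 in naive R3, was among the lowest.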

How the data were processed

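The authors deposited raw read counts per gene, from featureCounts and build mm10 according to the submitters' processing notes. The sources used here name no aligner, annotation release or strand setting. Symbols were matched by gene ID to RefSeq (GRCm38.p6) for 25275 of the 27179 gene IDs. The members, lists, tests and named-gene rule were chosen with earlier results of these data known.

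Genes were filtered with edgeR's filterByExpr (minimum count 10, minimum total count 15), and 13275 were tested in R 4.3.3 by the quasi-likelihood method of edgeR 4.0.16 (TMM factors 0.9093 to 1.065, 1 mean per group over all 21 libraries, 14 residual degrees of freedom). Tests are two-sided, with Benjamini-Hochberg adjustment over all genes. The median total count was 16763449. Replicates differed beyond counting noise, with a chi-square per degree of freedom of 11.8 to 100.3.

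Libraries with 1 number within a treatment deviated together (18 correlations over 8424 genes, 0.14 to 0.59). Between treatments the same numbers gave -0.24 to 0.23. Heart libraries with the monocyte library of their number gave -0.16 to 0.69 (12 of 18 over 0.1). The 0.69 was between CAWS R3 and the monocytes of naive mice, which are different mice, so the correlations alone do not mark a pool. The pairing was read from the series design of divided pools, and the labels do not state it outright. Printed p-values come from a fit without pools unless the pool block is named, which adds 1 term per pool within its treatment. Values per library are given for members past the test in a CAWS comparison or interaction, for up to 6 per direction in each other comparison, and for pathway genes by smallest p. Others named were chosen after their values were seen. Alternatives were DESeq2 1.42.0, another scaling, other filters, only the groups compared, the replicate number as a term, and leaving out each library or pool. The script was tested on simulated data. Shared sequence and exon overlap were read from GENCODE M21 transcripts. 1 gene of the pathway lists is not reported here.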

Additional observations from a re-analysis of the deposited data

How the results depend on the processing

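The counts in this section describe how far the calls depend on the setting. Where no share of all genes in the same fit is given, they do not set the members apart from other genes. With only the groups compared, 2 members were higher with CAWS in R2 and 1 in R3, and 0 were lower in R3. With no filter on low counts 0 were lower in R3. With DESeq2 1 was higher in naive R3 against naive R2 and 1 in naive R2 against monocytes. With only the groups compared 1 was higher in naive R3 against naive R2 and 0 in naive R3 against monocytes.

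With the pool taken as a replicate block, 1 member was higher in the CAWS response of R3 minus R1 (1.6% of all genes) and 2 in that of R3 minus R2 (1.58%). The same block gave 2 higher (8.37%) and 1 lower (6.74%) in naive R2 against naive R1. It gave 10 higher (18.3%) and 1 lower (15.5%) in naive R3 against naive R1, and 6 higher (11.8%) in naive R3 against naive R2. With the replicate number as a block over all groups, 2 were higher in naive R2 against monocytes.

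Leaving out 1 library at a time, members higher with CAWS numbered 0 in R1, 0 to 1 in R2 and 0 to 1 in R3, and members lower 0 to 1 in R1, 0 in R2 and 0 to 1 in R3. Members higher numbered 2 to 5 in naive R3 against naive R1 and 0 to 2 in naive R3 against naive R2. Against monocytes, members higher numbered 0 to 1 in naive R2 and 0 to 1 in naive R3, and members lower 19 to 30, 18 to 28 and 19 to 29 in naive R1, R2 and R3. Leaving out 1 pool at a time, a choice made after seeing the data, those higher with CAWS numbered 0 to 1 in R1, 0 to 5 in R2 and 0 to 5 in R3, and those in naive R3 against naive R1 1 to 4.

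With 1 library or pool left out, the log2 fold change with CAWS ran from -0.92 to 0.56 for Mx2 in R1, positive without naive replicate 1. That of Rtp4 in R2 ran from -0.62 to 0.023, positive without naive replicate 1. That of Ifi44 in R1 ran from -0.16 to 3.00, negative without naive replicate 2. The 3 values of changed sign did not pass the test.

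With 3 pools a group and the members' spread in naive cells, the 95% interval of the CAWS effect stays within 1 on the log2 scale for only 26 to 28 of the 37 members. The cause of the pool difference was not tested.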
